A study of Mus musculus with 54 samples.

Results

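The first day of differentiation of S54F progenitors was followed at the level of transcripts. S54F progenitors are mouse H2K myogenic progenitors that lack their own emerin (EMD-/y) and were transduced with a lentivirus carrying emerin with the S54F change, then selected with puromycin as a pool of cells. The samples are the 3 labelled replicates of S54F at day 0 (0 h) and the 3 at day 1 (24 h), that is 6 of the 54 samples of the series, and they were chosen by the labels alone. Every gene of the deposited comparison of these groups was taken, 17558 in all. The other lines of the series are wildtype progenitors, EMD-/y progenitors, and EMD-/y progenitors transduced with wildtype emerin (+EMD) or with the Del9599 or Q133H emerin, so all lines but wildtype share the emerin-null background. The mutant lines were also kept in puromycin during growth and differentiation, according to the labels.

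Emerin is a protein of the inner nuclear membrane, and loss or mutation of its gene causes an Emery-Dreifuss muscular dystrophy. Myogenic progenitors that are taken off growth factors leave the cell cycle, switch on myogenin downstream of MyoD, and then build the contractile apparatus and fuse into myotubes. H2K progenitors come from mice with a heat-sensitive large T antigen under an interferon-inducible promoter, so they are grown with γ-interferon and lose it when they differentiate. Large T antigen is known to bind p53 and the retinoblastoma protein. On day 0 the cells had been plated densely in proliferation medium with serum, chick embryo extract, and γ-interferon. On day 1 they had spent a day in low horse serum without γ-interferon, and the study's methods also state a rise in temperature that the labels do not. The day, the medium, the γ-interferon, and the temperature therefore changed together and cannot be told apart in these samples.

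The deposited table holds 1 value per gene for each group, made by the authors from the 3 replicates and normalized together, so no spread between replicates, standard deviation, or test can be given here. The values of all genes summed to 18516465 normalized counts on day 0 and 18884216 on day 1, and the 10 highest genes took 7.74% and 6.46% of the sums. A gene was read when its higher group value was at least 10, which held for 13406 genes, while 4152 genes stayed below. The change is the log2 ratio of day 1 to day 0 with 1 added to each value. The word rose is used for genes at least 2-fold higher on day 1 and fell for genes at least 2-fold lower, with no statement on significance. At a value of 10 in both groups, counting error alone gives a standard error of 0.373 on the log2 ratio, and at 100 it gives 0.118.

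From day 0 to day 1, 1263 of the 13406 genes rose (9.42%) and 964 fell (7.19%). The median log2 ratio was -0.02, and 67.1% of genes changed by less than 1.5-fold. A change of at least 4-fold was seen for 400 genes upward and 203 downward. The genes that rose included 16 of 22 thin and thick filament genes, 11 of 19 genes of excitation-contraction coupling, 16 of 24 genes of the p53 pathway, and 18 of 32 genes of sterol and fatty acid synthesis. The genes that fell included 31 of 60 interferon-response genes, the repressors Id1, Id2, and Id3, and the matrix genes Spp1 and Tnc. Genes of DNA replication and mitosis stayed near their day 0 levels.

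**Figure D1:**
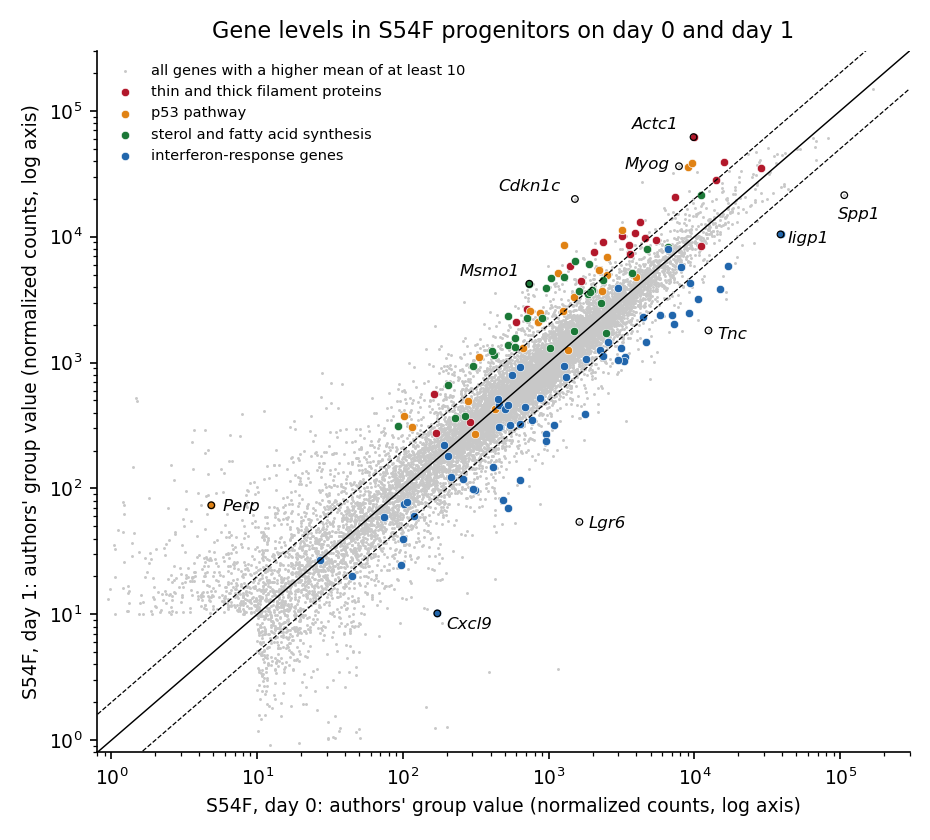
Each point is a gene with a higher group value of at least 10, placed by the authors' group value in S54F progenitors on day 0 (x axis) and day 1 (y axis), in normalized counts on log axes. The solid line marks equal values and the dashed lines a 2-fold change. Coloured points are members of 4 lists, and circled names are genes described in the text. Filament, p53, and sterol genes lie mostly above the line of equal values, and interferon-response genes mostly below it.

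The samples carried the transcripts of muscle progenitors on both days. Of 12 myogenic cell markers, 11 reached a value of 10. Desmin (Des), the muscle intermediate filament, was at 15488 and 24214, and the adhesion molecule Ncam1 was at 7648 and 11147. Summed over the list, the markers stood at 65657 normalized counts on day 0 and 103224 on day 1. Of the markers of other cells, the endothelial list summed to 23.1 and 35.7 over 5 genes, of which 1 reached 10, with Pecam1 at 4.71 and 3.22. The macrophage and leukocyte list summed to 134 and 143, with Ptprc (CD45) at 0.561 and 0.47 and Cd14 at 79.8 and 77.2. In that list Itgam rose from 4.49 to 28.6 and Csf1r fell from 18.9 to 6.8. Adipocyte markers summed to 495 and 603, mostly Cebpa (405.5 and 533.3), with Pparg at 43.65 and 7.42 and Adipoq at 0.178 and 0.156. Schwann and neural markers summed to 1097 and 694, with S100b at 0.649 and 0.389. Among these Mbp was at 61.1 and 50.8 and Ngfr at 41.3 and 8.39. The bone and cartilage list went from 3201 to 1582. The smooth muscle and pericyte list went from 35771 to 57194, most of it Acta2 (32172 and 50445), an actin that cultured myogenic cells also express. The fibroblast list summed to 3530 and 2232, and Ly6a (Sca-1), which is not restricted to fibroblasts, made up 2904 and 1085 of these, whereas Pdgfra was at 22.1 and 22.2. In bulk RNA, fewer cells of a type and less RNA per cell cannot be told apart, for these lists and for all results that follow.

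The transcript of mouse Emd (chromosome X, 74254674 to 74261563, mm10) was listed at 0.331 on day 0 and 0.33 on day 1. In wildtype progenitors it was at 1888 and 1755 in the table of their own first day. Set against wildtype in a common table, the log2 ratio was -9.28 on day 0 and -9.20 on day 1. Values this low are set by the authors' model, and the level of the transduced emerin was not analysed here.

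Genes of the interferon-response, sterol, filament, and mitosis lists are shown beside their promoters, taken from RefSeq (GRCm38.p6, 250 bases before to 50 bases after the annotated start), which were found for 10131 of the genes read. Of 10 short motifs searched on both strands, the interferon-stimulated GAAANNGAA was held by 14 of the 19 interferon-response genes that fell and had a promoter entry (73.7%), against 8.43% of all genes read. TTCNNNGAA was held by 7 of the same 19 genes (36.8%), against 8.14% of all. CCAAT, a box common in sterol and cell-cycle promoters, was held by 13 of 14 sterol genes that rose and had a promoter entry (92.9%). Among all genes read the share with CCAAT was 43.2%. The E-box CAGCTG is a motif that MyoD and myogenin can bind. It was held by 5 of 12 filament genes that rose and had a promoter entry (41.7%). Its share was 30.1% among all genes that rose and 18.3% among all genes read. Another E-box, CAGGTG, was held by 3 of these 12 (25.0%), against 20.3% of all. Neither was held by the 2 myogenic regulators that rose and had an entry. TTTGAA, known as the cell-cycle homology region, was held by 32 of 50 mitosis genes with a promoter entry (64.0%), against 14.2% of all. A match is a description of the letters and not evidence of binding.

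The promoters of 3 interferon-response genes are shown first, those with the largest falls among members with the motif and a single promoter entry, with GAAANNGAA in capitals. The matches start 175 bases before the start site in Cxcl9 and 213 in Cxcl10, and the pair in Socs1, 83 and 77 bases before it, overlaps.
Cxcl9 (chr5:92328030-92328329, minus strand): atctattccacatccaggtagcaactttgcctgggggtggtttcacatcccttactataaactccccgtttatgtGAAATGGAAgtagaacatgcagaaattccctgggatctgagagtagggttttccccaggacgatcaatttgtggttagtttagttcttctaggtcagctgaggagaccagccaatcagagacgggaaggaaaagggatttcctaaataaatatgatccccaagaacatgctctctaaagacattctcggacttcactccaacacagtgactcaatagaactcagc
Cxcl10 (chr5:92348840-92349139, minus strand): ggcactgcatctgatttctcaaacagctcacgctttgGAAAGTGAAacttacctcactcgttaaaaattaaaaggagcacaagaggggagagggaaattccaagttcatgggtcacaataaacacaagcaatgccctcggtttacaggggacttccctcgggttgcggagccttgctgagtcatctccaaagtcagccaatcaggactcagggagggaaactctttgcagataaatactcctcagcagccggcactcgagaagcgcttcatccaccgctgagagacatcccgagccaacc
Socs1 (chr16:10785487-10785786, minus strand): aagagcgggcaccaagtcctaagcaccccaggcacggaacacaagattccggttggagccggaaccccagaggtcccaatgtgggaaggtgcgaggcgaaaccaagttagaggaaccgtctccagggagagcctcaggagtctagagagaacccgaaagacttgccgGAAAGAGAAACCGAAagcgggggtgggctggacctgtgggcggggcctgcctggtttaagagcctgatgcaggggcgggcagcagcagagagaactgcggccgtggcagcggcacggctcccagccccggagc

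The sterol promoters shown are Msmo1, the largest rise of that list, with CCAAT in capitals at 3 places, and Hmgcs1, with a match to TCACNCCAC, the core of the sterol response element, in capitals 137 bases before the start. TCACNCCAC was held by 1 of the 14 sterol genes that rose and had a promoter entry (7.14%), which is Hmgcs1. Among all genes read the share was 1.34%.
Msmo1 (chr8:64733529-64733828, minus strand): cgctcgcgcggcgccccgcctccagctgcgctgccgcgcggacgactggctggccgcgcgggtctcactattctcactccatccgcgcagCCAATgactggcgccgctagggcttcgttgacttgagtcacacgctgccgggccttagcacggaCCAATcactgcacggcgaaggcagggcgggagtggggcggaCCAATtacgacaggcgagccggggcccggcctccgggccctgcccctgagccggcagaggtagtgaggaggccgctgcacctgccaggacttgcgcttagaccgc
Hmgcs1 (chr13:119690101-119690400, plus strand): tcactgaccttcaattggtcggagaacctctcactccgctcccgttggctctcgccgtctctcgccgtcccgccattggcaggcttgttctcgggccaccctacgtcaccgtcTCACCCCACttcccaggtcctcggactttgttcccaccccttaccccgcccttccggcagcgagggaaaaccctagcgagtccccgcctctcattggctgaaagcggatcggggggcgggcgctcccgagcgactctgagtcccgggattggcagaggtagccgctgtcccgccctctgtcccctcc

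The filament promoters shown are Mybph and Mylpf, with the CAGCTG E-box in capitals 79 and 51 bases before the start.
Mybph (chr1:134193198-134193497, plus strand): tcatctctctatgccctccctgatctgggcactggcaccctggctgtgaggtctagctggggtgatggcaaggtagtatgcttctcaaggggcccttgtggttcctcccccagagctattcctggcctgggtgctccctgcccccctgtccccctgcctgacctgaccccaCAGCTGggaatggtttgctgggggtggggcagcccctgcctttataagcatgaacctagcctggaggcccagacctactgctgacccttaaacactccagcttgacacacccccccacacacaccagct
Mylpf (chr7:127211358-127211657, plus strand): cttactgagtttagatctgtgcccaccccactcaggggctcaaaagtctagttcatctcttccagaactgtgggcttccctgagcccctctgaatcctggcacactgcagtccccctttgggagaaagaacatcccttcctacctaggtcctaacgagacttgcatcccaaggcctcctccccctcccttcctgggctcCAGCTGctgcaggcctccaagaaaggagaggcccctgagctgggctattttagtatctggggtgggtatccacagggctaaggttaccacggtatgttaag

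The mitosis promoters shown are Mki67 and Cdk1, whose levels on day 1 stayed within 2-fold of day 0, with both TTTGAA matches in capitals.
Mki67 (chr7:135716330-135716629, minus strand): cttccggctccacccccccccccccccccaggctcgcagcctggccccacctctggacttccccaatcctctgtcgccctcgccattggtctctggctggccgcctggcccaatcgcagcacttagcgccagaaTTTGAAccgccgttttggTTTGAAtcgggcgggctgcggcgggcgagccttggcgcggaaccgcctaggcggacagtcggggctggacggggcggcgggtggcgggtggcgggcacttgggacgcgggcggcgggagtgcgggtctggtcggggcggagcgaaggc
Cdk1 (chr10:69352863-69353162, minus strand): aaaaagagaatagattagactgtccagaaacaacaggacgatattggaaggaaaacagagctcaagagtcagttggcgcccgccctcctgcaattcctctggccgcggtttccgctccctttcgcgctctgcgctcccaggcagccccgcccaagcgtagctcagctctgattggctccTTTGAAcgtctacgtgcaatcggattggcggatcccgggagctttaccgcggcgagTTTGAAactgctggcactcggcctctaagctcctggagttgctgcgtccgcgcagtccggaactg

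The regulators of the muscle program moved unevenly. Myog, which encodes myogenin, rose from 7838 to 36292, a 4.63-fold change (log2 2.21). Myod1, the regulator upstream of it, went from 11528 to 18390 (log2 0.67) and did not pass 2-fold. Mef2a, a partner of the myogenic factors, rose from 7015 to 14044 (log2 1.00), at the edge of the threshold. Mef2c (2284 to 3095), Mef2d (3030 to 4763), and the E proteins Tcf12 (5029 to 6194) and Tcf3 (3290 to 2388) stayed within 2-fold. Per kilobase of the listed transcript length, the level of Myog was 5164 on day 0, below the 6218 of Myod1, and on day 1 it was 23908 against 9919.

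The 3 regulators that fell were inhibitors of the myogenic factors. Id1, Id2, and Id3 lack a DNA-binding domain and sequester the E proteins. Id3 fell from 5253 to 1019 (log2 -2.36), Id2 from 5066 to 1138 (-2.15), and Id1 from 2274 to 657 (-1.79), while Id4 was low, at 40.2 and 33.9. The progenitor genes did not follow them. Pax7, the satellite cell factor, was at 878 and 965 (log2 0.14), Myf5 at 443 and 455 (0.04), and Pax3 at 271 and 249 (-0.12). Of the 19 regulators read, 2 rose, 3 fell, and 14 stayed within 2-fold, with a median log2 ratio of 0.13. In wildtype progenitors Pax7 had a log2 ratio of -1.40. S54F progenitors held more Pax7 than wildtype in the common tables, with a log2 ratio of 1.16 on day 0 and 2.73 on day 1.

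Genes of the contractile apparatus rose as a group, from levels that were already high on day 0. Of 22 thin and thick filament genes read, 16 rose and none fell, with a median log2 ratio of 1.43. Actc1, the cardiac actin of early myotubes, rose from 9860 to 61836, a 6.27-fold change, and skeletal actin Acta1 from 15927 to 39496 (log2 1.31). The fast troponins Tnnc2 (1410 to 5843) and Tnnt3 (3198 to 10178) and the giant protein titin (Ttn, 7307 to 20541) rose as well. Tpm3, a tropomyosin, was the only one of the 22 with a negative ratio, at 11056 and 8470 (log2 -0.38). Of 22 genes of the Z-disc and M-band, 12 rose, with a median of 1.44. Those that rose most were the myosin chaperone Unc45b (391 to 1895), Actn3 (820 to 3845), and Myoz2 (36.4 to 160). Myot was the only one of the 22 that fell, from 75.0 to 16.7 (log2 -2.11), and Tcap was at 32.3 and 18.2.

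Of 7 myosin heavy chains read, 2 rose and 1 fell, with a median of 0.78. Embryonic Myh3 rose from 10476 to 32817 (log2 1.65). Slow Myh7 rose from 637 to 1357 (1.09). The perinatal Myh8 (2718 to 4092, log2 0.59) and the fast Myh1 (3542 to 5533, log2 0.64) stayed within 2-fold, and adult Myh4 fell from 48.4 to 21.7 (log2 -1.12). In wildtype progenitors the log2 ratios of the same genes were 2.78 for Myh3, 3.15 for Myh7, 2.34 for Myh8, 2.17 for Myh1, and 1.91 for Myh4. Near-identical stretches were found for Myh1 and Myh2, whose reads may be split by the mapping.

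Calcium handling, the synapse, fusion, and muscle metabolism moved with the filaments. Of 19 genes of excitation-contraction coupling, 11 rose, among them calsequestrin Casq2 (988 to 5821, log2 2.56), the calcium-binding Hrc (314 to 1377, 2.13), and the calcium pump Atp2a1 (2088 to 8839, 2.08), and the chloride channel Clcn1 fell from 10.1 to 3.76. Of 9 acetylcholine receptor and synapse genes, 6 rose, among them Chrng (1172 to 3848) and Chrna1 (9854 to 19769). Of 18 fusion and adhesion genes, 5 rose. The membrane fusion proteins Mymk (3209 to 13138, log2 2.03) and Mymx (274 to 1361, 2.31) were the largest of these, followed by M-cadherin (Cdh15, 3822 to 11104). Of 16 genes of the dystrophin-glycoprotein complex, 6 rose, including Dag1 (4601 to 13573) and Sgca (461 to 1601), while Dmd was at 44.6 and 27.9. Of 15 muscle energy enzymes, 8 rose and none fell. Muscle glycogen phosphorylase Pygm rose 8.36-fold, from 425 to 3563, and creatine kinase Ckm from 267 to 1567.

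Of 10 CDK inhibitors and pocket proteins, 3 rose on day 1 and none fell, while genes of replication and division stayed near their day 0 levels. Cdkn1c, which encodes the CDK inhibitor p57, rose from 1514 to 19936, a 13.2-fold change and the largest of the list. Cdkn1a, which encodes p21, rose from 9644 to 38657 (log2 2.00), and the retinoblastoma gene Rb1 from 1530 to 7721 (2.33). The other 7 CDK inhibitors and pocket proteins stayed within 2-fold, with Cdkn1b at 1051 and 1099, Cdkn2c at 573 and 870, Cdkn2a at 3082 and 2584, and Rbl1 at 1708 and 1192. The log2 ratios of Cdkn2d, Rbl2, and Cdkn2b were 0.28, -0.04, and -0.13. Cdkn1c was higher in S54F than in wildtype on both days, with log2 ratios of 3.42 and 2.70 in the common tables.

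None of 47 DNA replication genes passed 2-fold in either direction, and their median log2 ratio was -0.10. Of 60 mitosis genes, 1 fell and none rose, with a median of -0.30 and 51 ratios below 0. The gene that fell was Mybl2, a regulator of cell-cycle transcription, which went from 1101 to 494. The proliferation marker Mki67 was at 9279 and 5953 (log2 -0.64), the mitotic kinase gene Cdk1 at 3459 and 2254 (-0.62), Plk1 at 3085 and 2247 (-0.46), and the helicase subunit gene Mcm2 at 4201 and 5043 (0.26). Of 19 cyclins, CDKs, and E2Fs of G1 and S phase, E2f2 rose (356 to 1351) and Cdk6 fell (3216 to 1554), with cyclin D1 (Ccnd1) at 9940 and 5855 (log2 -0.76).

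The next day stands beside the first. Between day 1 and day 2 (48 h) of S54F differentiation, 1252 of 13336 genes rose (9.39%) and 1480 fell (11.1%). Of the same lists, 57 of 60 mitosis genes and 44 of 47 DNA replication genes fell, with medians of -3.42 and -2.26. Mki67 had a log2 ratio of -3.91, Cdk1 of -2.97, and Mybl2 of -3.61. The 2 comparisons share the day 1 samples. In wildtype progenitors, 1677 of 13432 genes rose from day 0 to day 1 (12.5%) and 1384 fell (10.3%). There 21 of the mitosis genes and 11 of the DNA replication genes fell on the first day, with medians of -0.90 and -0.71. In the common table of day 1, the medians of S54F over wildtype were 0.48 for mitosis and 0.60 for DNA replication. On day 0 they were -0.10 and -0.08. On day 2 they were 1.17 and 0.18, and 34 of 60 mitosis genes and 2 of 47 DNA replication genes were at least 2-fold higher in S54F. Whether the first day differed between the lines could not be tested without values per replicate.

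**Figure D2:**
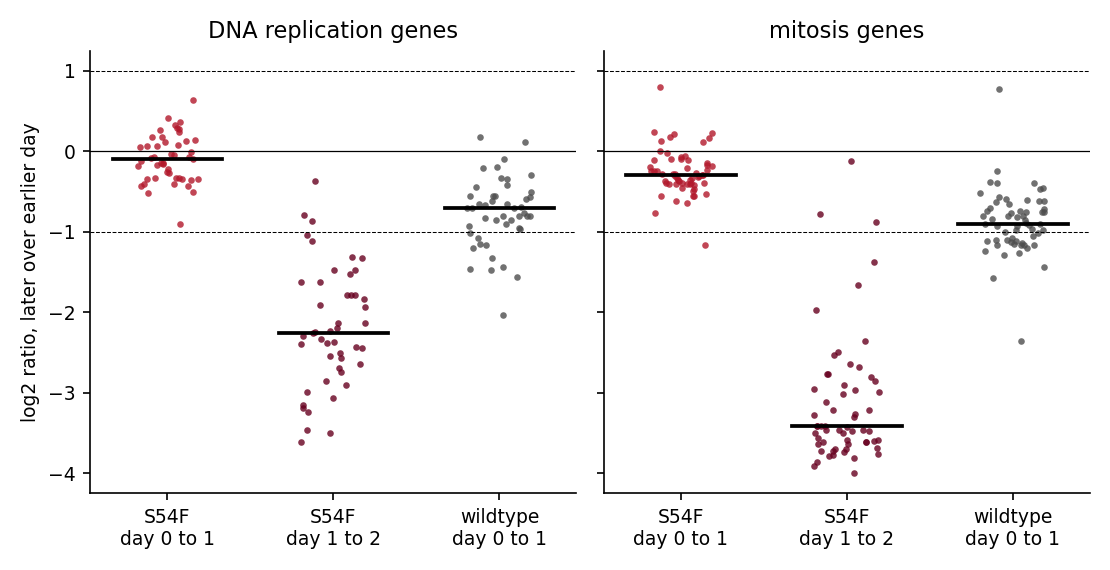
Each point is a gene of the DNA replication list (left) or the mitosis list (right), placed by its log2 ratio of the later to the earlier day, and black bars are medians. The columns are S54F day 0 to day 1, S54F day 1 to day 2, and wildtype day 0 to day 1, with dashed lines at 2-fold. The S54F medians of the first day lie at -0.10 and -0.30, and those of the second day at -2.26 and -3.42.

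Of 24 genes of the p53 pathway read, 16 rose and none fell, with a median log2 ratio of 1.35. Ccng1 rose from 9079 to 36017, the p53 inhibitor Mdm2 from 3208 to 11219, the stress gene Trp53inp1 from 1276 to 8548, and the receptor gene Eda2r from 1162 to 5185. Of the genes that promote cell death, Bax rose from 2222 to 5414, Pmaip1 from 873 to 2491, and Bbc3 from 116 to 307. Perp, a p53 target of the membrane, had the largest ratio from a low start, at 4.85 and 73.6. Trp53 itself was at 3982 and 4763 (log2 0.26). Of 26 genes of homologous recombination and damage signalling, none rose or fell, with a median of -0.31. Cdkn1a belongs to the p53 list and to the list of CDK inhibitors. From day 1 to day 2, 1 p53 gene rose and 4 fell, with a median of -0.45.

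Sterol synthesis rose as a pathway. Of 32 genes of sterol and fatty acid synthesis, 18 rose, none fell, and 31 had ratios above 0, with a median of 1.26. Msmo1 rose from 736 to 4230 (log2 2.52), Idi1 from 1035 to 4708 (2.18), Nsdhl from 530 to 2362 (2.15), Cyp51 from 1508 to 6419 (2.09), and Fdft1 from 960 to 3886 (2.02). These encode enzymes between mevalonate and cholesterol. Hmgcs1 rose from 1904 to 6067 (1.67), and Insig1, a feedback gene of the pathway, from 707 to 2272 (1.68). Of the fatty acid genes, the desaturase Fads2 rose (894 to 2265) and so did Acss2 (92.5 to 311), an enzyme that makes acetyl-CoA. Fasn was at 6632 and 8261, Acly at 3735 and 5162, and Acaca at 2470 and 1721, all within 2-fold. Tm7sf2, a sterol reductase gene outside the list, went from 1.42 to 149 (log2 5.96). From day 1 to day 2 none of the 32 rose and 2 fell.

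Interferon-response genes were the group with the most falls. Of 60 read, 31 fell and none rose, with a median of -1.09, and 4 of the 64 listed did not reach 10. The chemokines Cxcl9 (172 to 10.2, log2 -3.95) and Cxcl10 (486 to 80.4, -2.58) had the largest ratios with the MHC class II gene H2-Aa (528 to 69.9, -2.90). GTPases of the immune defence also fell. Iigp1 fell from 38950 to 10431, Tgtp2 from 16926 to 5834, Gbp2 from 14962 to 3818, and Irgm1 from 10503 to 3210. Socs1, a feedback inhibitor of the pathway, fell from 637 to 117. The transcription factor Irf1 (4424 to 2314, log2 -0.93) did not pass 2-fold. Neither did Isg15 (203 to 182), Ifit1 (193 to 221), or Ifit3 (101 to 75.6), which are better known as targets of type I interferon. Of 21 MHC class I and antigen processing genes, 3 fell, namely H2-T23, Erap1, and H2-M3, and 19 had ratios below 0. Their median log2 ratio was -0.60, and B2m, at 41851 and 46180, was 1 of the 2 with ratios above 0. In wildtype 14 of the 21 fell, with a median of -1.09. Tgtp1 and Tgtp2, and Gbp7 and Gbp10, hold stretches near-identical to other genes. All day 0 cells, wildtype included, had been in γ-interferon and no day 1 cells were, and its part in the fall was not tested.

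Of 16 temperature-responsive genes read, 2 rose, 2 fell, and 12 stayed within 2-fold, with a median of 0.45. The cold-induced RNA-binding proteins Rbm3 (18896 to 6142, log2 -1.62) and Cirbp (1018 to 400, -1.35) fell. The heat shock genes Hspa1a (96.8 to 407, 2.06) and Hsph1 (2032 to 4978, 1.29) rose, while Hsp90ab1 (64800 to 60768) and Hspa8 (67182 to 51621) stayed within 2-fold. Hspa1b, at 423 and 686 (log2 0.70), also stayed within 2-fold. Near-identical stretches were found for Hspa1a and Hspa1b, whose reads may be split by the mapping. The log2 ratios of Rbm3 and Cirbp in wildtype were -1.99 and -1.91.

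The secreted and matrix genes changed in composition. Of 36 matrix glycoproteins and proteoglycans, 6 rose and 6 fell, and the summed level of the list went from 318925 to 183549. Spp1 (osteopontin) fell from 106648 to 21374 and made up most of that difference. Tenascin C (Tnc) fell from 12488 to 1800 (log2 -2.79), fibromodulin (Fmod) from 181 to 18.7 (-3.21), and hyaluronan synthase Has2 from 5054 to 1634, whereas Ogn rose from 2013 to 4619. Of 34 matrix proteases, inhibitors, and cross-linkers, 5 rose and 11 fell. The inhibitors Timp3 (16506 to 3210) and Timp1 (8191 to 1790) and the cross-linking enzyme Lox (9201 to 3660) fell. Serpine2 (1733 to 6763), Plod2 (1494 to 4592), and Adamts5 (336 to 1304) rose. Collagens as a list stayed near their levels, with 2 of 31 rising, 1 falling, and a median of 0.08.

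Signalling genes moved in both directions, and the counts stand beside the 9.42% of all genes read that rose and the 7.19% that fell. Of 38 genes of the TGF-β family, 5 rose and 8 fell. The inhibitory Smads Smad6 (349 to 72.8) and Smad7 (700 to 194), and activin subunit Inhba (5557 to 1209) fell, whereas myostatin (Mstn) rose from 22.9 to 113 and Tgfb3 from 1268 to 3685. In the Wnt list of 34 genes read, 4 rose and 5 fell, with a median of -0.22. There Lgr6 fell from 1625 to 54.3 (log2 -4.88), and Wnt9a rose from 430 to 1607. Of 34 immediate-early and ERK feedback genes, 6 fell, including Myc (1836 to 524), Hbegf (730 to 143), and Dusp5 (372 to 101), and 1 rose, Spry1 (112 to 519). The Yap target Ccn2 fell from 4939 to 736. In its list of 33 Hippo pathway genes and Yap targets, 1 rose and 3 fell, with a median of -0.09. The Yap targets Ccn1 (log2 -0.29) and Ankrd1 (-0.94) stayed within 2-fold. In the Notch list of 20 genes read, 5 rose and 2 fell, with a median of 0.32. The receptor Notch3 (1115 to 4251), the target Heyl (391 to 1301), and the ligand Dll1 (466 to 1311) rose, and Lfng fell from 267 to 42.6. In the insulin-like growth factor axis of 19 genes, 5 rose and 1 fell, with a median of 0.19. There Igf1 (117 to 508), Igfbp5 (9195 to 23116), and Igf2r (3095 to 8007) rose, and Igf2 was at 23359 and 45305 (log2 0.96).

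Metabolic and stress lists were mixed. Of 20 NRF2 antioxidant genes, 7 fell and none rose, including Slc7a11 (255 to 28.8, log2 -3.10), Nqo1 (2192 to 470), and G6pdx (4096 to 1277). Of 23 genes of hypoxia factors, their targets, and apelin, 9 rose and 1 fell. Bnip3 (706 to 3785) and Pdk1 (379 to 1376) were among the rises, and Vegfa (2181 to 911) was the fall. Apelin (Apln) was at 236 and 137 (log2 -0.78). In the other lines between 8 (+EMD) and 12 (EMD-/y) genes of this list rose. Of 26 glycolysis genes, 6 rose and 3 fell, with Pfkl (1164 to 4080) and Ldhb (191 to 947) rising and the hexokinase Hk2 (1812 to 588) falling. Of 24 SRF and actin cytoskeleton genes, 4 fell, among them Tagln2 (11399 to 4349), and none rose. Of 23 genes of the nuclear envelope and its link to the cytoskeleton, 2 rose, Tmem38a (781 to 4233) and Plpp7 (123 to 316), both known from muscle, while lamin A (Lmna) was at 25849 and 18714. Of 20 histone deacetylase and corepressor genes, Hdac11 (197 to 1091) and Hdac9 (33.1 to 187) rose, and Hdac3, a partner of emerin, was at 1954 and 1872. In these last 2 lists the share that rose was near that of all genes read, 9.42%.

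Other lists had few changes or changes in both directions, and their counts stand beside the 9.42% of all genes read that rose and the 7.19% that fell. Of 33 Hippo pathway genes, 1 rose and 3 fell, and of 22 integrins 5 rose and 2 fell. Of 13 laminins, nidogens, and perlecan, 2 rose, including Nid2, and 2 fell, including Lamb3. Of 17 FoxO and atrophy genes, 3 rose and none fell, with a median of 0.52. Of 30 genes of ATF4 and the unfolded protein response, 2 rose and 4 fell. Of 29 cytokines and chemokines, 3 rose and 8 fell, and of 23 tight junction and Rap1 genes 3 rose and 1 fell. None of 16 clock genes passed 2-fold.

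Among named genes with a value of at least 100, and with symbols of the Gm, Rik, and -ps kinds left out, the 12 largest falls included Lgr6, Sp7, Serpinb2, Cxcl9, Car8, Qrfp, Acsbg1, Cxcl14, Rgs4, Il11, and Fmod, with log2 ratios from -4.88 to -3.21. Sp7 (osterix), a transcription factor of bone, fell from 431 to 19.1, and Runx2, which acts upstream of it in bone, from 1904 to 880. Of the 6 bone and cartilage markers read, 3 fell and 1 rose, which was Bglap (osteocalcin), at 1.54 and 31.2. The 12 largest rises under the same rule were H2ac24, Tm7sf2, Atp5md, Cpa1, Ces2e, Kcnj15, Ermap, Samd12, Padi2, Cdkn1c, Espn, and Ltb4r2, with log2 ratios from 7.74 down to 3.57. The log2 ratios of 10 of these rises were also positive in wildtype, and those of H2ac24 and Atp5md were not.

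The other lines give the setting of these values. Wildtype progenitors share no samples with S54F. Of the 1259 genes that rose in S54F and were listed in the wildtype table, 934 also passed 2-fold upward there, and of 955 that fell, 577 did so downward. All 16 filament genes, all 16 p53 genes, 16 of the 18 sterol genes, and 30 of the 31 interferon-response genes called in S54F passed 2-fold in the same direction in wildtype. The size differed for the muscle lists. The filament median was 1.43 in S54F, 2.44 in wildtype, 1.52 in EMD-/y, 1.48 in +EMD, 0.17 in Del9599, and -1.21 in Q133H. The excitation-contraction medians ran 1.23, 2.06, 1.42, 0.85, 0.00, and -1.16 in the same order. In the common tables of S54F and wildtype, the filament median of S54F over wildtype was 0.35 on day 0, -0.55 on day 1, and -0.04 on day 2.

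The p53 and sterol lists had medians of at least 1 in all 6 lines. For the p53 pathway these lay between 1.06 in Q133H and 1.76 in +EMD, and for sterol and fatty acid synthesis between 1.02 in +EMD and 1.53 in Q133H. The interferon-response median was -1.09 in S54F and below 0 in 4 other lines, and 0.96 in Q133H. The mitosis median of the first day was -0.30 in S54F, below -0.07 in +EMD, -0.02 in Del9599, and -0.01 in Q133H and above -0.66 in EMD-/y and -0.90 in wildtype. No test of these differences was possible, and the lines were made and selected separately, so a difference between lines cannot be told apart from a difference between pools of cells.

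**Figure D3:**
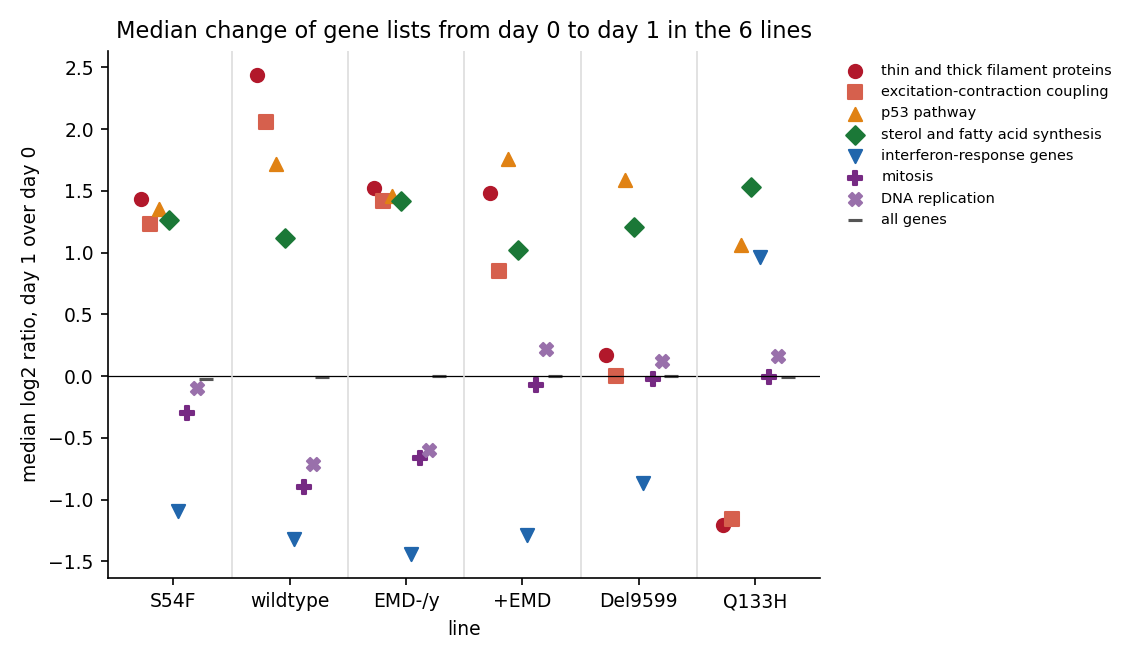
The median log2 ratio of day 1 to day 0 is plotted for 7 gene lists and for all genes, in each of the 6 lines. Symbols and colours mark the lists. Sterol and p53 medians are above 1 in every line, filament medians fall from 2.44 in wildtype to -1.21 in Q133H, and the medians of all genes lie between -0.02 and 0.

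One set of genes moved in opposite directions in S54F and wildtype progenitors, and it was made up mainly of genes predicted by the sequencing provider. These 1525 predicted genes have no name, and 779 were read. Of these 44.5% passed 2-fold in S54F, against 14.9% of all other genes read. The share of predicted genes past 2-fold was 43.4% in wildtype, 48.8% in EMD-/y, 41.0% in +EMD, 42.2% in Del9599, and 34.6% in Q133H. For all other genes it was 21.4%, 19.7%, 15.8%, 12.3%, and 10.8% in the same order. Of 130 genes past 2-fold in opposite directions in S54F and wildtype, 103 were predicted genes. Across 12986 genes read in both tables, the log2 ratios had a Pearson correlation of 0.61 (Spearman 0.72), and across the 12302 without predicted genes it was 0.80 (0.77). With the other lines, the Pearson correlation of S54F over all genes was 0.60 for EMD-/y, 0.83 for +EMD, 0.82 for Del9599, and 0.56 for Q133H. Without predicted genes it was 0.84, 0.87, 0.81, and 0.48 in the same order. The value rose most for wildtype and EMD-/y, the lines that were not transduced. Among the transduced lines it changed little for +EMD and Del9599 and was lower for Q133H. Genes moving opposite to wildtype were not counted in these lines, so the pattern cannot be called particular to S54F. Genes are not independent replicates, so the correlations describe the tables only. Without predicted genes, 1072 genes rose and 808 fell in S54F.

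The 27 other genes past 2-fold in opposite directions included housekeeping genes. The glycolytic enzyme Gapdh fell from 25757 to 8966 in S54F, and in wildtype it rose from 1479 to 6184. The ribosomal protein genes Rps13 (2183 to 408 in S54F, 655 to 1526 in wildtype) and Rps29 (407 to 103, and 96.2 to 274) and the ATP synthase gene Atp5g2 (2995 to 845, and 807 to 2475) went the same ways. In the other direction, Pebp1 rose from 660 to 3636 in S54F and fell from 2521 to 283 in wildtype, Atp5md rose from 6.53 to 268 and fell from 474 to 59.6, and the histone gene H2ac24 rose from 1.47 to 526 and fell from 693 to 1.24. A near-identical stretch in another gene was found for 10 of the 27 (37.0%), against 18.8% of all genes compared, with Gapdh, Pebp1, and H2ac24 among the 10. The changes of the cytosolic ribosomal and respiratory chain lists rested in part on such genes. Of 82 ribosomal protein genes, 4 fell and none rose, with a median of -0.06, and 3 of these 4 had positive ratios in wildtype. The numbers that rose and fell were 3 and 1 in wildtype and 3 and 2 in EMD-/y. They were 1 and 4 in +EMD, 0 and 4 in Del9599, and 0 and 3 in Q133H. Of 81 respiratory chain genes, 8 rose and 1 fell, with a median of 0.29, and 3 of the 8 had negative ratios in wildtype. Among all genes read in S54F, 9.42% rose and 7.19% fell. How reads were divided between a gene, its copies, and the predicted genes was not tested.

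**Figure D4:**
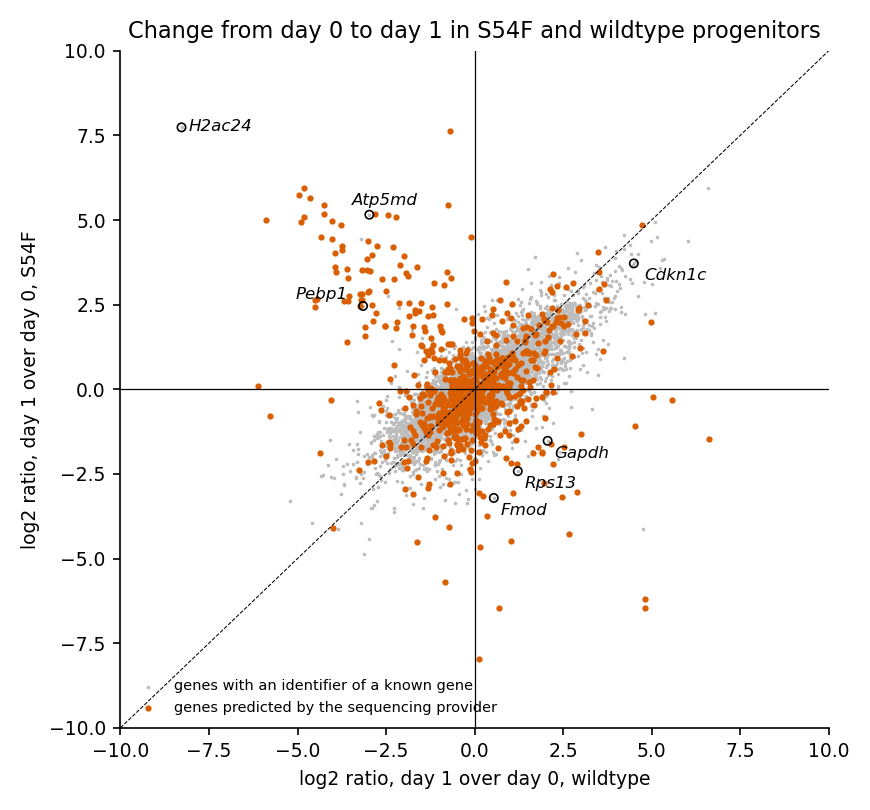
Each point is a gene with a value of at least 10 in the S54F table, placed by its log2 ratio of day 1 to day 0 in wildtype (x axis) and S54F (y axis). Orange points are genes predicted by the sequencing provider, grey points all others, and the dashed line marks equal ratios. Most grey points follow the diagonal, and a cloud of orange points lies at the upper left with H2ac24 and Atp5md.

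Other named genes had unlike ratios in the lines, with no test of the difference. Fmod had log2 ratios of -3.21 in S54F and 0.54 in wildtype. Postn (periostin) was at 188 and 125 in S54F (log2 -0.58), against a log2 ratio of 3.32 in wildtype. Ptx3, at 167 and 105, had log2 ratios of -0.67 in S54F and -3.29 in wildtype. These genes were chosen after the values were seen, since 11 of the 12 genes with the largest differences between the lines, among those at 100 or more in both tables, were predicted genes and the other was H2ac24.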

How the data were processed

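RNA from S54F and the other H2K progenitor lines was sequenced with 3 labelled replicates per group, and the study's methods give technical and biological replicates without saying which sample is which. The authors had their reads filtered (SOAPnuke), mapped to mm10 (HISAT2), and the groups compared (DESeq2) where the libraries were sequenced. The signal values deposited by the authors are 1 normalized count per gene and group, and the deposited length of each gene was used for levels per kilobase. The tables also hold the authors' fold changes, p-values, q-values, and calls, which were not used. The values are not plain means. No gene is listed at 0, the smallest values are 0.149 and 0.156, and 774 low genes share 6 pairs of values. Read as 1 read in 1 of the 6 libraries, these pairs give relative depths between 0.903 and 1.05. Ratios of low genes are therefore pulled toward equality.

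Of 17558 genes, 16011 were named by gene ID through RefSeq (GRCm38.p6), 1525 are predicted, and 22 had no name. Log2 ratios used a pseudocount of 1, a minimum of 10 for the higher value, and a threshold of 2-fold. Named genes are the 12 largest changes each way among named genes with a value of at least 100 (Gm, Rik, and -ps symbols left out), up to 3 members per list and direction with every member of lists of up to 12, all myogenic and CDK inhibitor genes, and the 6 largest differences from wildtype each way among genes with a value of at least 100 in both tables; other list members were added for their known roles after their values were seen. The lists and genes were chosen with earlier results of these data known. Differences were taken within a table. Near-identical copies are alignments of at least 200 bases and 97% identity between the longest GENCODE transcripts (minimap2 2.31). The calling was also run on simulated plain means with larger known changes in genes well above the minimum. The deposited values are not plain means, so that run cannot show how 2-fold calls fare among low genes. Python 3.11.15, pandas 2.3.3, and scipy 1.17.1 were used. The alternatives were other pseudocounts, minimums, and folds, 2 scalings, leaving out predicted genes, and ratios chained through wildtype. Results for some genes are not reported here.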

Additional observations from a re-analysis of the deposited data

How the results depend on the processing

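The counts depended most on the fold threshold. At 1.5-fold, 2310 genes were higher and 2102 lower on day 1, and at 4-fold 400 and 203. The share of predicted genes among changed genes was 15.6%, 10.2% with a minimum of 50, and 26.5% at 4-fold. The correlation with wildtype went from 0.61 to 0.80 without predicted genes. The endothelial median, which rests on 1 gene, went from 1.55 to 0.91 with a pseudocount of 10 and to -0.34 with no minimum, and the smooth muscle median from 0.30 to -0.30 with no minimum. All other list medians, including those of muscle, p53, sterol, interferon-response, and cell-cycle genes, moved by less than 1.5-fold under every alternative run. Of the 234 named genes followed, 35 moved by more than 1.5-fold with a pseudocount of 10 and 6 when chained through the wildtype tables, and none of those past 2-fold changed sign. No paired analysis was possible because the tables hold only 1 value per group, and for the same reason no replicate could be left out. Values of 1 group in different tables were compared after centring on the median difference of genes at 100 or more. For those genes they differed by -0.03 to 0.02 (log2, central 95%). The range was -0.61 to 0.19 for genes from 10 to 100 and -1.58 to 1.75 for genes under 10, which limits what can be said of low genes.
The list of replication-dependent histones matched no gene under current symbols and gave no value.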
